A study of Mus musculus with 18 samples.

Results

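Gene expression in FoxA1 knockout footpad skin was compared with that of wild-type littermates at postnatal day 31 (P31), the oldest of the 3 ages in the series. The comparison held 3 knockout and 3 wild-type arrays, 6 of the 18 arrays in all, chosen by their titles. The skin was the hairless skin of the fore footpad of C57BL/6 mice, with 1 skin sample per array and the sex given as mixed and not per animal. The labels call the modification a gene knockout and do not describe the allele, how it was made or whether other alleles were carried. The design text speaks of 3 embryos per genotype and age although the ages are postnatal, and the samples were taken here as separate animals. The same genotypes at P10 and P14, also with 3 arrays each, serve below only to show where P31 differed from the earlier ages. On every array the skin RNA carried the dye Cy3 and was hybridised beside a Cy5-labelled reference, RNA pooled from mouse cell lines and mixed with embryonic stem cell RNA, so each value is a log2 ratio of skin over reference.

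FoxA1 is a forkhead transcription factor that can bind closed chromatin and open it for other factors. In the mouse, eccrine sweat glands are confined to the footpads, where coiled secretory tubes in the dermis open through ducts to the surface. The series title names bestrophin 2 (Best2), an anion channel, and Nkcc1 (gene Slc12a2), a cotransporter that loads chloride into secretory cells, and the question of the comparison was which transcripts differed between the genotypes in footpad skin. In whole skin, fewer cells of a type and less RNA per cell cannot be told apart.

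The scanner files give a gene name or position for 0 of the 42006 probes. Annotation of the array platform was not used here, and probes are therefore named by their identifiers and by their sequences of 60 bases. The levels of Foxa1, Best2 and Slc12a2, and the markers of sweat gland, keratinocyte, muscle, blood and other cell types by which the labelled tissue would be checked, were not analysed here. Probes were kept where the skin channel was well above background on at least 3 of the 6 arrays, which 24832 probes met. Of these, 24813 had values on all arrays and were tested with limma. A probe was called where its p, adjusted by the Benjamini-Hochberg method over all tested probes, was under 0.05 and its fold over 1.5.

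The 6 arrays did not group by genotype. The first principal component held 41.6% of their variance and set knockout replicate 3 (score 37.4) and wild-type replicate 2 (38.2) apart from the other arrays (-26.8 to -11.4). The second component held 26.2% and set wild-type replicate 1 apart at -44.7, against -6.73 to 15.5 for the rest. Of the 15 pairs of arrays, knockout replicate 2 and wild-type replicate 3 correlated most closely over the tested probes (Pearson's r = 0.988, a description, since all arrays share the reference). Knockout replicates 1 and 2 lay on 1 slide and the other 4 arrays on another. No slide held arrays of the same genotype at different ages, so steps between ages within a genotype cannot be told apart from slide. Each library was kept, and values without single arrays are given beside the results that they move. In the skin channel 0 spots were saturated, the share of probes well above background was 55.6% to 63.7%, and the median spot brightness of 107 to 146 stood over a local background of 44.0 to 48.0. Errors after ± are the SD of 3 arrays, a number that limits the precision of every value.

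At P31, 6 probes of 24813 were called (0.0242%), all of them lower in the knockout, and 0 were higher by limma. At an unadjusted p under 0.05 there were 1939 probes (7.81%), 1031 higher (4.16%) and 908 lower (3.66%) in the knockout. The 3 knockout arrays lay entirely to one side of the 3 wild-type arrays for 1572 probes (6.34%), below them for 700 (2.82%) and above them for 872 (3.51%). The median difference of knockout minus wild type was 0.03 on the log2 scale, with a median standard error of 0.15. A difference of more than 2-fold was seen for 34 probes downward and 27 upward, so most of the larger differences did not stand clear of the spread between arrays. An exact permutation test of 3 against 3 arrays cannot go below p = 0.1 and was not used.

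**Figure D1:**
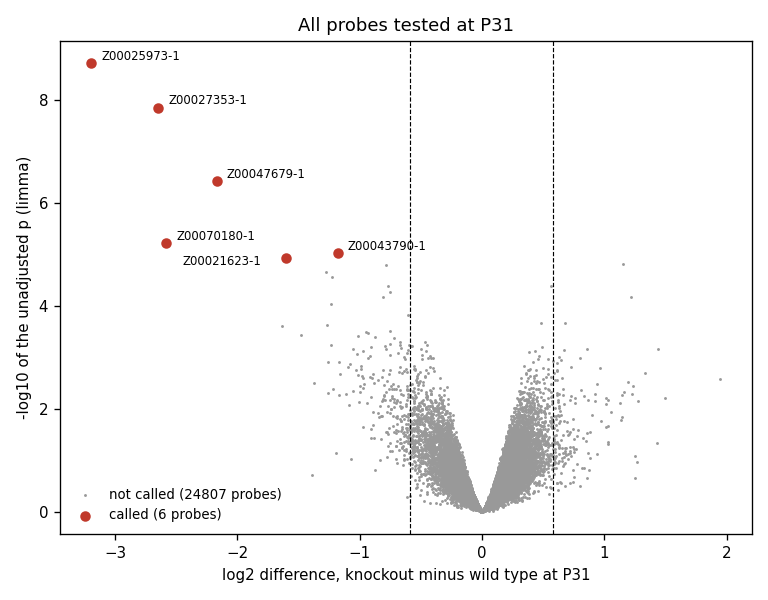
Each point is 1 of the 24813 probes tested at P31, with the log2 difference of knockout minus wild type on the horizontal axis and -log10 of limma's unadjusted p on the vertical axis. The dashed lines mark 1.5-fold, and the 6 called probes (red) all lie on the left, between -3.20 and -1.18.

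The sequences of the 6 called probes are shown because they are the only identity that the files give them. They run 5′ to 3′ in lower case, and capitals mark the hexamers AATAAA or ATTAAA, signals that lie shortly before the 3′ end of many transcripts.
Z00025973-1: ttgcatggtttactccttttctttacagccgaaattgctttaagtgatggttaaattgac
Z00027353-1: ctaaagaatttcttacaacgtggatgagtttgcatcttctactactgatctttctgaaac
Z00070180-1: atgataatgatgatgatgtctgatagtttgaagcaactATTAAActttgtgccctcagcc
Z00047679-1: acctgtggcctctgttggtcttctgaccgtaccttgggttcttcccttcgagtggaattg
Z00021623-1: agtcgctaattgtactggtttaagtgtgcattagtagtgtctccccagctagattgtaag
Z00043790-1: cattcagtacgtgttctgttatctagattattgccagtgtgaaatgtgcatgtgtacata

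One of the 6 held such a hexamer, as did 11.1% of all tested probes searched on the probe strand. The GC content of 5 of them was 35.0% to 41.7% and that of Z00047679-1 was 53.3%, where the median of the tested probes was 45.0%. None of the 6 shared a run of 18 or more bases with any other probe, on either strand, so each stands as a single probe with no second probe of the same sequence to check it.

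Z00025973-1 had the largest difference. Its log2 ratio was -2.38, -2.46 and -2.995 in the knockout arrays, and -0.09, 0.48 and 1.35 in the wild type. The lowest wild-type array lay more than 2 log2 units above the highest knockout array. The log2 difference was -3.20 (SE 0.27, adjusted p = 4.72e-05 by limma). In the skin channel the probe had a mean brightness of 63.1 to 85.8 in the knockout, not well above background on any array, and of 312 to 627 in the wild type. It thus met the detection filter only through its 3 wild-type arrays of P31, where it is high, and a filter on all 6 arrays left it out. Against the lowest signal that counts as well above background, the knockout had a Cy3 signal at least 7.99-fold lower. The bound takes normalised means of the skin channel and is open to dye bias, since dyes were not swapped.

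The same difference was present at the earlier ages. The probe was well above background on 0 of 9 knockout arrays and on 9 of 9 wild-type arrays over the 3 ages, and the bounds at P10 and P14 were at least 8.02-fold and 8.20-fold lower. The log2 differences at those ages were -3.46 and -3.20. The P31 difference minus the mean of the earlier ones was 0.13 (SE 0.33, adjusted p = 0.983 by limma). The wild-type level was 0.32 ± 0.14, 0.65 ± 0.38 and 0.58 ± 0.72 from the youngest to the oldest age (SD, n = 3 each). Leaving out any 1 of the 18 arrays kept the call, with an adjusted p of at most 0.000632 by limma.

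Z00047679-1 was bright in wild-type skin. At P31 its log2 ratio was 2.67, 2.27 and 1.24 in the knockout and 4.02, 4.18 and 4.50 in the wild type, with no overlap. The log2 difference was -2.17 (SE 0.27, adjusted p = 0.00315 by limma). Unlike Z00025973-1, this probe kept a signal in the knockout, well above background on all 9 knockout arrays.

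The ratio of Z00047679-1 differed less than its skin channel did, since the reference channel moved in the same direction. The mean Cy3 brightness was 733, 527 and 529 in the knockout against 16182, 14220 and 17851 in the wild type. The mean Cy5 brightness at the same spots was 291, 268 and 204 in the knockout against 1452, 1481 and 1804 in the wild type, although the same reference RNA was used throughout. With each channel scaled to its own 75th percentile, Cy3 alone differed by -4.90 on the log2 scale (29.8-fold, adjusted p = 2.18e-07 by limma) and Cy5 alone by -3.09 (8.53-fold, adjusted p = 1.47e-06). It was the only probe of 24813 called in the reference channel at P31 (0.00403%). The other 5 called probes had an adjusted p of 1 in Cy5 by limma, among them Z00027353-1, whose dim Cy5 signal was also lower in the knockout (-1.57, SE 0.38). Where the Cy5 signal at this spot came from was not tested.

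The same pattern ran through the ages. In wild-type skin the Cy3 brightness of Z00047679-1 was 3150 to 5059 at P10, 9471 to 15388 at P14 and 14220 to 17851 at P31. Its Cy5 brightness there was 421 to 542, 859 to 1013 and 1452 to 1804. In the knockout Cy3 was 210 to 298, 297 to 383 and 527 to 733, while Cy5 stayed between 188 and 291 at all ages. The knockout log2 ratio was 0.05 ± 0.16 at P10, 1.13 ± 0.35 at P14 and 2.06 ± 0.74 at P31 (SD, n = 3 each). It rose from P14 to P31 by 0.93 (SE 0.27, adjusted p = 0.0408 by limma, where 5.55% of probes were called), a step that shares the P31 arrays with the genotype comparison. In the wild type the same step of the ratio was -0.05 (adjusted p = 0.933). Age and slide cannot be told apart in these steps. The log2 ratios differed between genotypes by -3.54, -3.14 and -2.17 in order of age. Those values include the Cy5 signal that moved with Cy3. Normalised log2 means of Cy3 were 7.70, 8.72 and 9.73 in the knockout and 11.95, 14.01 and 14.49 in the wild type. In Cy3 the genotypes were closest at P10, in the ratio at P31. For the ratio, the P31 difference minus the earlier mean was 1.18 (SE 0.33, adjusted p = 0.403), which did not pass. The call at P31 was lost in 6 of 16 other settings. These were the scanner software's log ratio (-1.80, adjusted p = 0.0552), the deposited table (0.0507), array weights (0.0671), the ordinary model (0.0839), the replicate block (0.0843) and the 6 arrays of P31 alone (0.63).

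**Figure D2:**
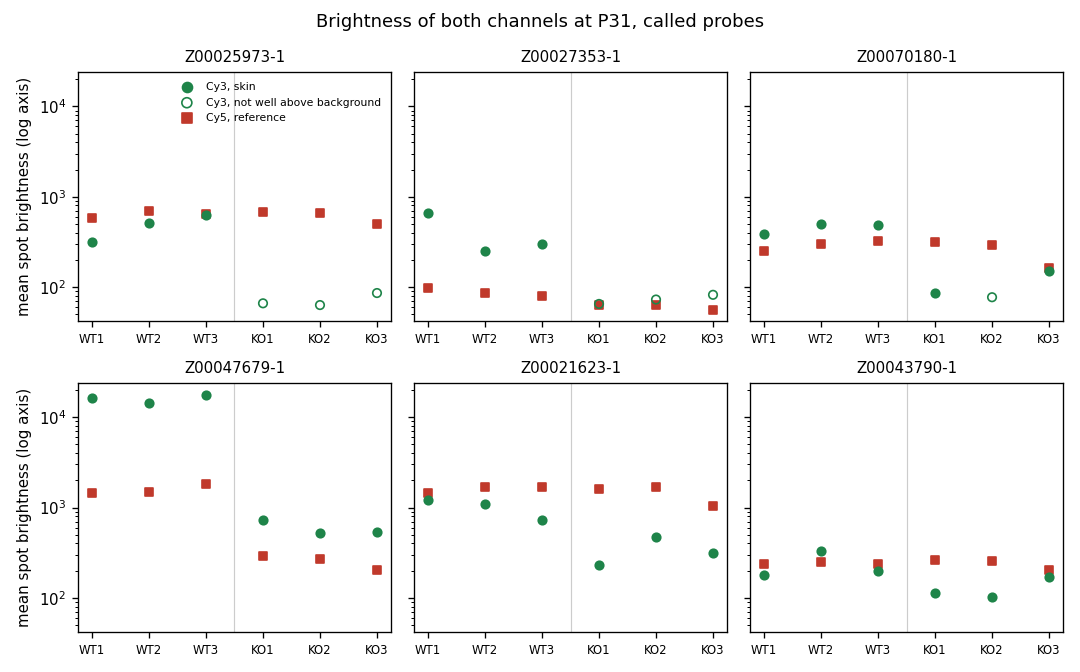
Mean spot brightness at P31 for the 6 called probes, on a log axis, with 1 position for each array (WT, wild type; KO, knockout). Circles are the skin channel (Cy3, open where not well above background) and squares the reference channel (Cy5). Both channels are lower in the knockout without overlap for Z00047679-1, with Cy5 at 1452 to 1804 on wild-type and 204 to 291 on knockout arrays, and for the dim Z00027353-1, with Cy5 at 78.6 to 96.8 and 55.6 to 62.8.

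Z00027353-1 set P31 apart from the earlier ages. Its log2 ratio at P31 was 0.06, 0.26 and -0.07 in the knockout and 3.56, 1.98 and 2.65 in the wild type. The wild-type arrays spread widely among themselves but all lay far above the knockout. The difference was -2.65 (SE 0.26, adjusted p = 0.000173 by limma), and the knockout had a Cy3 signal at least 6.04-fold lower. The probe was well above background on the 3 wild-type arrays of P31 and on none of the other 15 arrays.

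Neither genotype had this signal at P10 or P14. The log2 differences there were -0.04 and -0.17, and the ratios of both genotypes lay close to 0. Between P14 and P31 the wild type rose by 2.60 (SE 0.26, adjusted p = 9.94e-06 by limma, where 7.57% of probes were called). The knockout value for the same step was 0.12 (adjusted p = 0.659). The step shares the P31 arrays with the genotype comparison, and age and slide cannot be told apart in it. The P31 difference minus the mean of the P10 and P14 differences was -2.54 (SE 0.31, adjusted p = 0.00995). This was the 1 probe of 24813 (0.00403%) whose genotype difference was called as changing between P31 and the earlier ages, while 1918 (7.73%) had an unadjusted p under 0.05. These probes were kept for detection at P31 alone, so probes detected only at the earlier ages were not in this test. Z00027353-1 met that filter only through its 3 wild-type arrays of P31. A filter on all 6 arrays of P31 left it out, and 0 probes were then called. The call of the change was lost with a normexp offset of 0 in the background correction (adjusted p = 0.326 by limma) and with a replicate block (adjusted p = 0.142). It was also lost in an ordinary model without pooled variance (adjusted p = 0.131). With the slide as a fixed block the change was -2.64, in a contrast that holds 1 knockout array of P31 and takes the spread from the other groups. That change is given as a value and not as a call. The call at P31 itself stood in the ordinary model (adjusted p = 0.0104) and was lost in a fit of the 6 arrays of P31 alone (adjusted p = 0.304).

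The other 3 called probes passed closer to the limit. Z00070180-1 had log2 ratios of -1.08, -1.20 and -0.48 in the knockout and 1.43, 1.64 and 1.92 in the wild type, a difference of -2.58 (SE 0.39, adjusted p = 0.0369 by limma). Its signal was well above background on 2 of the 3 knockout arrays of P31 and on none at P10 and P14, so its knockout level is close to the detection limit at all ages. In the wild type the mean was -0.04 ± 1.11, 0.94 ± 0.59 and 1.66 ± 0.24 at the 3 ages (SD, n = 3 each). The differences of -1.59 at P10 and -2.32 at P14 did not pass (adjusted p = 0.793 and 0.0636), and the change of the difference at P31 was -0.63 (adjusted p = 0.854).

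Z00021623-1 had log2 ratios of -1.43, -0.48 and -1.85 in the knockout and 0.51, 0.32 and 0.23 in the wild type. The wild-type arrays lay close together and knockout replicate 2 lay nearest to them. The difference was -1.60 (SE 0.26, adjusted p = 0.0482 by limma), against -0.71 at P14 and -0.31 at P10, neither of which passed (adjusted p = 0.512 and 1). Between P14 and P31, a step that shares the P31 arrays with the genotype comparison, the knockout fell by 1.28 (adjusted p = 0.0051 by limma). The wild-type value for that step was -0.38 (adjusted p = 0.366). Age and slide cannot be told apart in these steps. The test of the change in the genotype difference gave -1.10 (SE 0.32, adjusted p = 0.41) and did not pass.

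Z00043790-1 had log2 ratios of -0.31, -0.53 and -0.55 in the knockout and 0.25, 1.15 and 0.74 in the wild type, a difference of -1.18 (SE 0.19, adjusted p = 0.0473 by limma). It was the smallest of the called differences, in a dim probe with a mean Cy3 brightness of 101 to 169 on knockout and 181 to 328 on wild-type arrays. The genotypes differed by -0.88 at P10 and -0.83 at P14, with no overlap of the arrays at either age, but neither passed (adjusted p = 0.366 and 0.271). Its steps from P14 to P31 were -0.06 in the knockout and 0.29 in the wild type (adjusted p = 0.894 and 0.334).

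All 6 called probes had a lower mean in the knockout at P14 and at P10 as well, where over all tested probes 56.9% and 52.7% had the same sign as at P31. Called at P14 were 7 of the same 24813 probes (0.0282%) and at P10 5 (0.0202%), and both sets held Z00025973-1 and Z00047679-1. Leaving out any single array kept the calls of Z00025973-1, Z00027353-1 and Z00047679-1. The calls of Z00070180-1, Z00021623-1 and Z00043790-1 were lost in 12, 15 and 15 of the 18 fits that left out 1 array, with adjusted p up to 0.195, 0.248 and 0.197 by limma. In a fit of the 6 arrays of P31 alone, where those arrays give the spread, the calls of Z00025973-1, Z00027353-1 and Z00047679-1 were lost (adjusted p = 0.0918, 0.304 and 0.63), as were those of Z00021623-1 and Z00043790-1 (1 for each), and Z00070180-1 kept its call (0.0378). Within the slide that holds both genotypes, knockout replicate 3 against the 3 wild-type arrays, the differences were -3.58 for Z00025973-1, -2.80 for Z00027353-1, -2.99 for Z00047679-1, -2.14 for Z00070180-1, -2.20 for Z00021623-1 and -1.26 for Z00043790-1. That contrast has a single knockout array, which is assumed to vary like the other groups, so its differences are given as values.

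**Figure D3:**
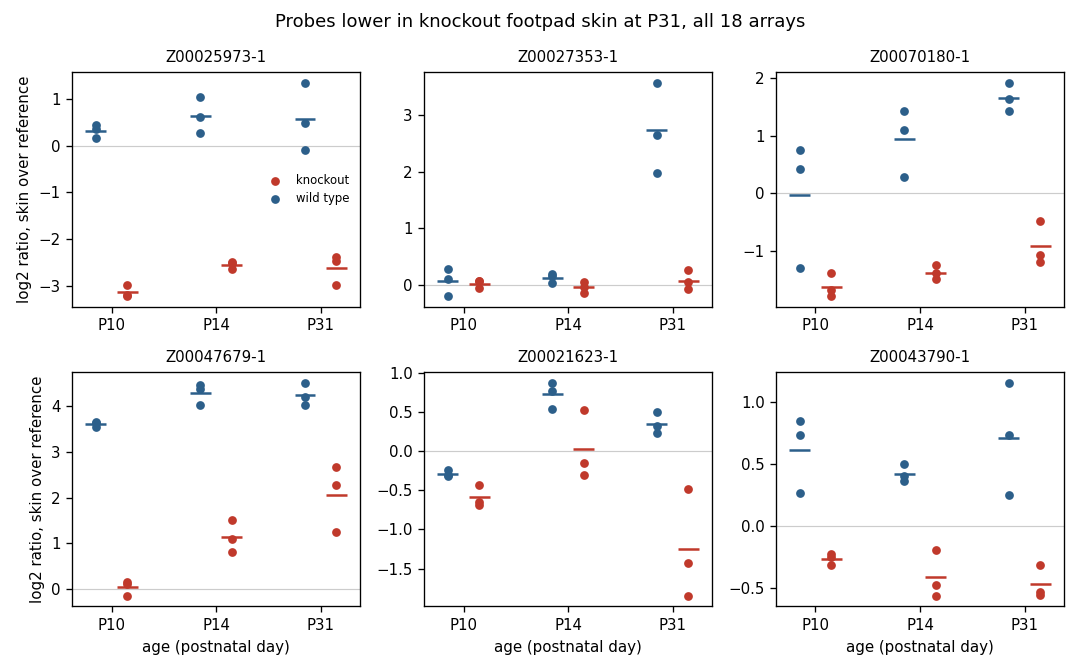
Log2 ratios of skin over reference for the 6 called probes at P10, P14 and P31, with 1 point per array and a bar at the mean of 3 arrays (blue, wild type; red, knockout). The arrays of the genotypes do not overlap at any age for each probe but Z00027353-1, which is apart at P31 alone. The gap is narrow for Z00070180-1 at P10 and for Z00021623-1 at P14. The knockout mean of Z00047679-1 is 0.05 at P10 and 2.06 at P31.

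Several probes lay just outside the limit. Z00046430-1 had log2 ratios of 0.34, 0.84 and 0.75 in the knockout and 1.54, 1.74 and 2.32 in the wild type, a difference of -1.22 at P31 (SE 0.21, adjusted p = 0.0676 by limma). The same probe was called lower at P14 (-1.80, adjusted p = 0.000941) and P10 (-1.74, adjusted p = 0.0018). The change of its difference at P31 was 0.54 (SE 0.26, adjusted p = 0.655), so the data do not separate the ages. Z00076654-1 was detected on the 3 wild-type arrays (1.32, 0.74 and 0.72) and on none of the knockout arrays (-0.40, -0.37 and -0.28), with adjusted p = 0.059. Z00023161-1 was the nearest to passing among those higher in the knockout, at 0.82, 0.29 and 1.07 against -0.52, -0.22 and -0.55, a difference of 1.16 (SE 0.19, adjusted p = 0.0502). It was higher at P14 too (1.20, adjusted p = 0.0331), and its P10 difference was 0.63 (adjusted p = 1).

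Of the 24813 tested probes, 192 lower and 148 higher ones had an unadjusted p under 0.01 and arrays that did not overlap between genotypes, without being called. At any p, the arrays did not overlap for 700 lower (2.82%) and 872 higher (3.51%) probes. The 20 with the largest differences in each direction ran from -1.63 to -0.99 and from 1.44 to 0.60, with adjusted p of 0.059 to 0.519 and 0.0502 to 0.528 by limma. In 15 of the 20 lower probes and 11 of the 20 higher ones, the wild-type array nearest to the knockout was replicate 3. The same share over all tested probes was not counted, so this is given as a description. The largest of the lower ones, Z00073067-1, had values of 0.63, 1.23 and 0.18 in the knockout and 2.90, 2.59 and 1.45 in the wild type. Z00058313-1 stood at 1.57, 1.43 and 1.77 in the knockout and at 3.52, 3.74 and 1.95 in the wild type. In both, wild-type replicates 1 and 2 were high and replicate 3 lay near the knockout.

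Among the higher ones, Z00064010-1 had values of -1.57, 0.06 and 0.11 in the knockout and -1.68, -2.10 and -1.95 in the wild type. Knockout replicate 1 lay next to the wild type and the other knockout arrays far above it. Z00023589-1 was the probe of this set that differed most between ages, which lay on different slides within each genotype. It stood at 6.93, 5.67 and 6.48 in the knockout and 4.94, 5.10 and 5.39 in the wild type at P31, after means of 0.87 ± 0.08 and 0.71 ± 0.07 at P14 (SD, n = 3 each). Its step from P14 to P31 was 4.44 in the wild type (SE 0.23, adjusted p = 2.66e-08 by limma) and 5.49 in the knockout (adjusted p = 9.02e-10), whereas the genotype difference of 1.22 at P31 did not pass (adjusted p = 0.112).

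**Figure D4:**
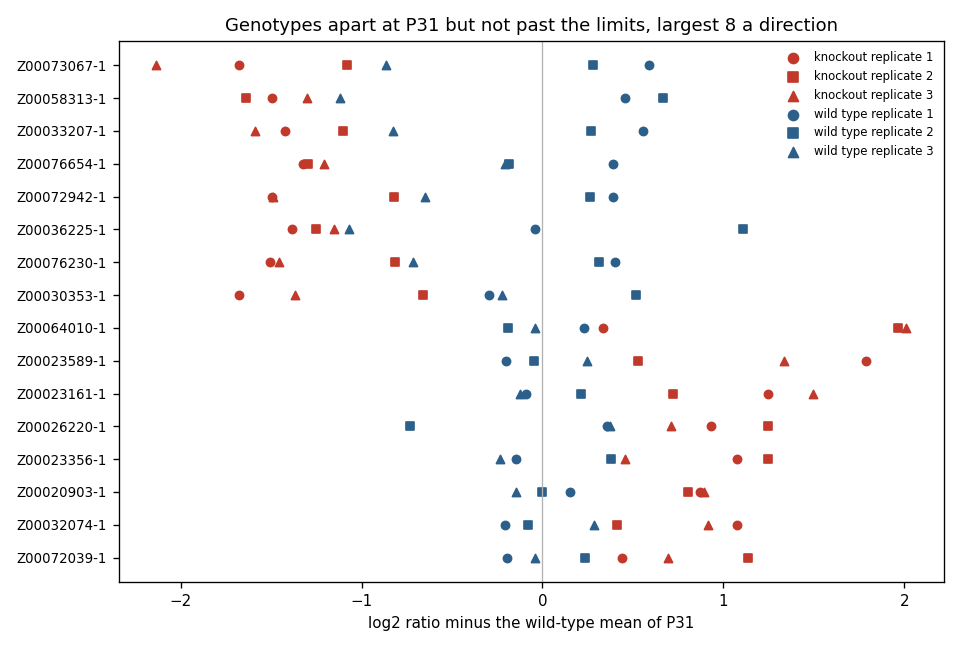
Log2 ratio minus the wild-type mean of P31 for the 8 largest lower and the 8 largest higher probes whose genotypes did not overlap but were not called, with 1 symbol for each array (red, knockout; blue, wild type; circle, square and triangle for replicates 1, 2 and 3). In most of the lower probes the blue triangle, wild-type replicate 3, lies next to the knockout arrays.

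For 3 probes of the 20 lower ones, a second probe shared a run of 18 or more bases. The longest, 54 bases, was shared by Z00072942-1 and Z00073760-1 and is in capitals here.
Z00072942-1: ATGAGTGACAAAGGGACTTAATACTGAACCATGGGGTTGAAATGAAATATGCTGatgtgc
Z00073760-1: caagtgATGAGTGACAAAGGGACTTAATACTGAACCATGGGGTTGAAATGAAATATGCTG
Their differences at P31 were -1.27 and -1.23 (adjusted p = 0.284 and 0.371 by limma). Z00075178-1 and Z00076716-1 share a run of 42 bases and differed by -1.03 and -0.92 (adjusted p = 0.382 and 0.453). Z00030463-1 and Z00073997-1 share a run of 19 bases and differed by -0.999 and -0.910 (adjusted p = 0.511 and 0.519). In each pair both probes were lower in the knockout, and none passed.

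Detection in 1 genotype alone was uneven. On all 3 wild-type and no knockout arrays, 4 probes were well above background, with Z00025973-1 and Z00027353-1 called. The others were Z00076654-1, above, and Z00058628-1 (-0.78, adjusted p = 0.0502 by limma), which was named after its values were seen. On all 3 knockout and no wild-type arrays there were 90 such probes, of which 0 were called by limma, with a lowest adjusted p of 0.383. Both sets were chosen on detection in these same arrays, so the direction of their differences is no separate result. Knockout replicates 1 and 2 had 63.7% and 62.4% of all probes well above background, where the other 4 arrays of P31 had 55.6% to 59.2%, and the part of this in the 90 probes was not tested.

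One array decided how many probes were called. Without wild-type replicate 3, 266 probes passed (1.07%), 191 lower and 75 higher in the knockout, the 6 called probes among them. Leaving out knockout replicate 2 gave 13, and leaving out any of the other 4 arrays of P31 gave 4 to 6. Wild-type replicate 3 counted in the detection filter but took no part in the differences and p values that chose the 266 probes. On a scale from the mean of the knockout (0) to the mean of the other 2 wild-type arrays (1), its median position over them was 0.02, and it lay nearer to the knockout mean for 245. It fell within the range of the knockout arrays for 96 of the 191 and 45 of the 75.

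The 266 probes set the 2 other wild-type arrays apart from the other arrays of P31. Relative to the wild-type mean of P14, the median of the 191 lower probes was 0.68 and 0.84 in wild-type replicates 1 and 2, and -0.09 in replicate 3, where the knockout arrays had -0.26, -0.11 and -0.17. The median of the 75 higher probes was -0.98 and -1.02 in wild-type replicates 1 and 2, and 0.13 in replicate 3, against 0.31, 0.19 and -0.36 in the knockout. At P14 the median genotype differences of these sets were 0.29 and -0.19, opposite in sign to those at P31, and at P10 they were 0.11 and 0.02.

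The 8 lower and 6 higher probes with the largest differences in that fit held 4 of the called probes, and the probes named from them here were chosen after their values were seen. Z00057511-1, the largest but one of the higher ones, had values of 2.73, 2.90 and 1.83 in the knockout and 0.31, 0.79 and 2.36 in the wild type, with replicate 3 of the wild type at the level of the knockout. Its difference was 1.94 without that array (adjusted p = 0.00229 by limma) and 1.33 with it (adjusted p = 0.442). Z00029412-1, among the lower ones, had -0.76, -0.71 and -0.49 in the knockout and 0.66, 1.62 and -0.59 in the wild type, with adjusted p = 0.0059 without replicate 3 and 0.519 with it. For all 6 called probes, which were chosen with it, the same array lay above all knockout arrays, and it had the highest value of the 3 wild-type arrays for Z00025973-1 (1.35), Z00047679-1 (4.50) and Z00070180-1 (1.92). Without it the 6 called probes differed by -2.81 (Z00025973-1), -2.68 (Z00027353-1), -2.04 (Z00047679-1), -2.45 (Z00070180-1), -1.67 (Z00021623-1) and -1.17 (Z00043790-1), all called with adjusted p of at most 0.0153. It lies on the same slide as wild-type replicates 1 and 2. What else sets it apart from them was not tested.

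**Figure D5:**
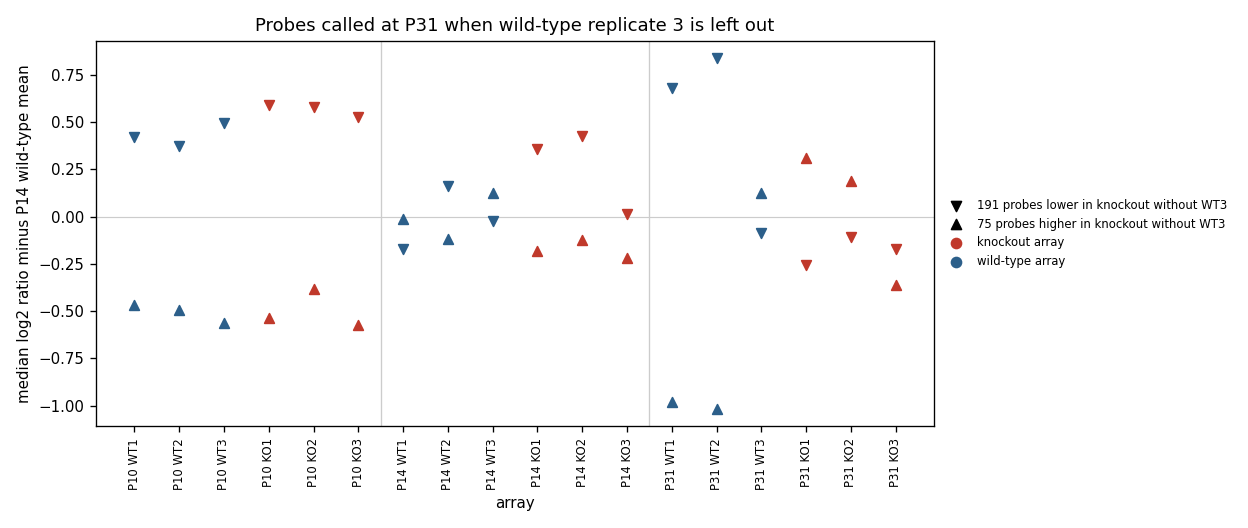
Median log2 ratio, relative to the wild-type mean of P14, of the 191 probes lower (downward triangles) and the 75 probes higher (upward triangles) in the knockout when wild-type replicate 3 of P31 was left out, on each of the 18 arrays (red, knockout; blue, wild type). Replicates 1 and 2 of the P31 wild type were used to choose the probes and stand apart at 0.68 and 0.84 and at -0.98 and -1.02. Replicate 3, which was used only in the detection filter, lies among the knockout arrays.

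Gene names could be given to few probes. An exact run of 30 or more bases within the first transcribed bases of a RefSeq gene model (GRCm38.p6 windows from 250 bases before to 50 after the annotated start) tied 46 tested probes to 46 genes, of which 0 were called at P31 by limma. Their median difference was 0.02, beside 0.03 over all probes, and the lowest adjusted p was 0.383. At an unadjusted p under 0.05 there were 5 of the 46, all higher in the knockout, where 7.81% of all tested probes met that limit and 4.16% met it and were higher. Rpl10a, which encodes a protein of the large ribosomal subunit and whose probe Z00032074-1 matched chr17:28328570-28328614 on the plus strand, had the largest difference, at 0.81, 0.15 and 0.65 in the knockout and -0.47, -0.34 and 0.02 in the wild type (0.80, SE 0.20, adjusted p = 0.383), with no overlap. The other 4 were Retn (0.53), the collagen gene Col28a1 (0.25), the glutathione transferase Gstp1 (0.43, with overlapping arrays) and the secreted phospholipase Pla2g2d (0.24), with adjusted p of 0.532 to 0.602. Rpl10a and Gstp1 belong to families with near-identical copies, so their signal may include such copies.

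Of the 354 genes in the lists of cell type markers, sweat gland, ion transport and other pathway genes, 2 could be tied, which is too few to describe any list. The probe of Retn, the adipocyte hormone resistin, matched chr8:3655771-3655819 on the plus strand. It stood at 3.02, 2.89 and 2.399 in the knockout and 2.35, 2.19 and 2.18 in the wild type, so that the arrays did not overlap, but the difference of 0.53 (SE 0.18) did not pass (adjusted p = 0.532 by limma). Its differences at P14 and P10 were 0.17 and -0.26. Sec61b, a subunit of the channel that passes new proteins into the endoplasmic reticulum, stood at 0.55, 0.41 and 0.18 in the knockout and 0.05, -0.14 and 0.77 in the wild type (0.16, SE 0.19, adjusted p = 0.869), with overlapping arrays and a difference that turned sign in 2 other settings.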

How the data were processed

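Skin RNA and a common reference were hybridised to 18 Agilent NIA Mouse 44K arrays. The deposited scanner files hold spot brightness and background as intensity in both channels, per the file headers made with Agilent Feature Extraction 9.5.1.1, a log10 ratio (reference over skin), and other marks of 0 or 1 per spot for outliers, saturation and signal well above background. A second deposited table holds log10 values of 25030 probes. Centred per probe, it was checked against the scanner ratio over 12921 probes and had a correlation of 1; its own constant per probe stays unknown.

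Mean brightness and median background were corrected with normexp (offset 50), normalised by loess within arrays and turned to log2 skin over reference in limma 3.58.1 (R 4.3.3). Of 42034 spots, averaged to 42006 probes, 24832 met the filter, less 19 with missing values. Group means were fitted over all 18 arrays (12 residual degrees of freedom) and tested with eBayes. P values are two-sided. They rest on a spread pooled over all 6 groups and, by eBayes, across probes, not on the arrays of P31 alone. Fitted array weights, lower for arrays that vary more, were 0.31 to 0.86 at P31 and 0.57 to 7.40 at P10 and P14. The SE and p at P31 can therefore be smaller than those arrays alone would give. The fit was tested on simulated data. Bounds set the brighter group's mean against, on each array, the lowest signal well above background or the probe's own where higher.

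Probes were named where they were called, at most 15 a direction, and beyond those up to 20 a direction by size with an unadjusted p under 0.01 and no overlap, and, from gene lists, where a RefSeq window tied them. The members, gene lists and alternatives were chosen with earlier results of these data known. Alternatives covered background correction, normalisation, Cy3 alone, the deposited table, filters, variance pooling, blocks, array weights and left-out arrays. Each array's slide was read from its scanner file.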

Additional observations from a re-analysis of the deposited data

Results flagged for a closer look

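The genotype difference of Z00027353-1 was larger at P31 than at the earlier ages. The P31 difference minus the mean of the P10 and P14 differences was -2.54 on the log2 scale (adjusted p = 0.00995 by limma, over 24813 probes), with all 3 wild-type arrays of P31 above all 3 knockout arrays. The probe met the detection filter only through its 3 wild-type arrays of P31, where it is high. A filter on all 6 arrays of P31 left it out, and 0 probes were then called, as with a mean log10 Cy3 signal over 2.0. The call was also lost with a normexp offset of 0 (adjusted p = 0.326 by limma), a replicate block (0.142) and an ordinary linear model (0.131).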

How the results depend on the processing

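No call at P31 changed direction in any setting. The count of 6 called probes at P31 became 3 with the scanner software's log ratio, with the deposited table, without a filter and with a mean log10 Cy3 signal over 2.0 (log base assumed). It became 1 with a filter on all 6 arrays and in a fit of the 6 arrays alone, and 2 in the ordinary model, with array weights and with a replicate block. It was 9 without background correction, 8 with the slide as a random effect, 7 with it as a fixed block (4 of them among the 6), 4 with an offset of 0 and 4 with Cy3 alone. Leaving out 1 array gave 3 to 266, with 3 without any P10 knockout array, P14 knockout replicate 1 or 3, or P14 wild-type replicate 2. The 1 probe whose difference changed with age became 0 with an offset of 0, the filter on all 6 arrays, the log10 limit, the ordinary model and the replicate block, and 2 with the scanner ratio and the deposited table; leaving out 1 array gave 1 to 427, with 427 without P31 wild-type replicate 3. The fixed slide block also called 1, a different probe. In the fit of the 6 arrays alone the share of lower probes among those with an unadjusted p under 0.05 was 61.1%, against 46.8%. The difference of Sec61b (Z00030447-1), which was not called, was -0.0493 with the fixed slide block and -0.0285 (without wild-type replicate 2) to 0.43 (without wild-type replicate 3) over the fits that left out 1 array. Replicate numbers did not pair the arrays of P31: deviations from the group means correlated at 0.38, -0.31 and -0.46 between same-numbered arrays, so the block above shows only how the count moves. The cause of these changes was not tested, beyond the fewer probes under the filters and the fewer arrays in the smaller fits. Dim signal limits Z00025973-1, Z00027353-1 and Z00070180-1, whose knockout levels lie at or near background.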
